A study of Mus musculus with 3 samples.

Results

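*Itga6*, *Itgb6*, *Itgav*, *Lamb3* and *Dst* are genes of the contact between an epithelial cell and the basement membrane, and they were followed here as 5 of the 9781 gene rows used from a single-cell RNA-seq count table of mouse prostate development. The 5 were chosen by name, from integrin, laminin and plakin genes of basal adhesion, and all 5 had a row. The cells came from 3 libraries of 1 sample each, with no replicate library: male urogenital sinus at embryonic day E18.5 and prostate at postnatal days P14 and P35. The study used these libraries to characterize *Osr1*-lineage cells of the prostate, which express *Osr1* or derive from cells that do. It reported these libraries from mice on a mixed C57BL/6 and 129S1/SvImJ background. All 3 tissues are labelled Normal, the labels give no genotype, agent or treatment for any of them, and all were dissociated with collagenase and TrypLE into mixed cells of the whole tissue. The number of animals behind each library is not given in the sources used here.

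In stratified and pseudostratified epithelia the basal cells are held to the basement membrane by hemidesmosomes. In these plaques the integrin dimer of α6 and β4 grips a laminin trimer that holds the *Lamb3* product on the outside, and the plakins plectin and the epithelial form of dystonin link it to keratin filaments on the inside. In the prostate such basal cells lie under the secretory luminal cells, and *Itga6* is widely used as a surface marker to sort them. The α6 subunit also pairs with β1 in endothelium and in Schwann cells, the *Dst* locus makes further forms in neurons, glia and muscle, and the dimer of αv and β6 binds latent TGF-β in epithelia.

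All cells lay in 1 table of 14573 columns, whose barcodes end in 1, 2 or 3. The labels do not say which ending belongs to which tissue, so the endings are called barcode sets 1, 2 and 3, values are set side by side for each set, and no ages are compared. The study states approximately 766 cells after filtering for E18.5, the number in set 1, but the numbers of sets 2 and 3 match none it states. After 97 columns of set 3 with fewer than 200 detected genes were left out, 766, 5350 and 8360 cells remained, with medians of 19357, 1738 and 1801 UMIs (unique molecular identifiers, 1 for each captured RNA molecule) per cell. Only 14 barcodes occurred in more than 1 set. Rates (CPM) are the UMIs that a gene received for every 1000000 UMIs counted in a class of cells, with exact Poisson intervals at 95% in parentheses. These intervals, and those of ratios and shares, cover counting error only. With 1 library behind each set no difference could be tested over samples, and no p-value is given.

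Clusters were named from fixed marker lists, and genes of the adhesion lists, the 5 genes included, were kept out of the genes used for clustering. Basal-like cells numbered 761 in set 2 and 1538 in set 3, luminal-like cells 128 and 369, and urothelium-like cells 21, 39 and 114 in sets 1, 2 and 3. Set 1 held no basal-like cell and only 2 luminal-like cells, so the basal and luminal comparison rests on sets 2 and 3. The basal-like cells were 3 clusters that carried 6, 5 and 5 of the 9 basal markers with a row. These included *Aqp3*, *Pdpn*, *Serpinb5* and *Lgals7* in the largest of them, whereas *Krt5*, *Krt14* and *Trp63* were not analysed here. *Wnt10a*, *Wnt4* and *Dapl1* of the same list were carried by none of the 3 clusters. The urothelium-like cluster carried *Wnt4* and *Dapl1*, and the unnamed epithelial cluster 7 carried *Wnt10a*, *Wnt4* and *Dapl1*. Hemoglobin genes were among the 10 leading genes of 2 of the 3 clusters. The luminal-like cells were 1 cluster that carried 5 of 9 luminal markers, and the urothelium-like cluster carried 8 of these 9 beside all 4 urothelium markers. Summed fibroblast markers (9 genes with a row) reached 1529.9 and 1671 CPM in basal-like cells of sets 2 and 3 but 430.5 and 198 CPM in luminal-like cells, against 15798 and 17230 CPM in fibroblast-like cells. Most basal-like cells held a UMI of a fibroblast or smooth muscle marker, and 34 of 761 in set 2 and 109 of 1538 in set 3 did not. In the cells without such a UMI *Itga6* was at 368 CPM (233 to 552) and 359 CPM (279 to 454), *Dst* at 336 CPM (208 to 513) and 660.2 CPM (550.4 to 785), *Lamb3* at 80.0 CPM (26.0 to 187) and 57.2 CPM (28.5 to 102), and *Itgb6* at 112 CPM (45.01 to 231) and 78.0 CPM (43.6 to 129).

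The hemidesmosomal genes stood well above luminal-like cells in basal-like cells. Of the 5 genes, *Itga6*, *Dst*, *Lamb3* and *Itgb6* were at least 2-fold higher in basal-like than in luminal-like cells in both sets, and *Itgav* was not. Over all gene rows with at least 10 UMIs in the 2 classes together, 16.3% of 5609 rows in set 2 and 14% of 6503 rows in set 3 were at least 2-fold higher in basal-like cells, and 9.07% and 16.4% were at least 2-fold lower, none of the 5 genes among them. The median log2 ratio of the 5 genes was 1.61 in set 2 and 1.21 in set 3, beside 0.20 and -0.03 over all rows tested. With cells holding stromal marker UMIs left out of both classes, the count was 2 in set 2 (21.5% of 1394 rows), where *Lamb3* and *Itgb6* no longer reached 10 UMIs, and 4 in set 3 (15.4% of 3824 rows). Clustered without integration of the sets, 2 genes were at least 2-fold higher in each set (16.4% and 9.93% of rows), *Dst* and *Lamb3* in set 3, and only 21 cells of set 2 were then basal-like.

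*Lamb3* encodes the β3 chain of the laminin trimer that hemidesmosomes bind. In basal-like cells its rate was 98.1 CPM (87.0 to 110.2) in set 2 and 60.5 CPM (54.1 to 67.4) in set 3, and in luminal-like cells 8.16 CPM (3.73 to 15.5) and 3.098 CPM (1.69 to 5.20). The basal-like rates were 12.02-fold (6.24 to 26.6) and 19.5-fold (11.47 to 36.1) higher. These ratios placed *Lamb3* 24th from the top of 5609 rows in set 2 and 47th of 6503 in set 3. The luminal-like values rest on 9 and 14 UMIs, so the ratio is much less precise than the basal-like rate itself.

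*Itga6*, the integrin subunit of the hemidesmosome core, was found at 451 CPM (427 to 476) and 472 CPM (454 to 491) in basal-like cells of sets 2 and 3. Luminal-like cells held 197 CPM (171 to 225) and 204 CPM (191 to 218), so that the gene was lower in them but far from absent. The fold was 2.29 (1.98 to 2.66) in set 2 and 2.31 (2.14 to 2.49) in set 3, the closest pair of ratios between sets among the 5 genes. With the unnamed epithelial clusters 1 and 8, which carried 5 luminal markers each, joined to the luminal-like cluster, an alternative chosen after seeing the data, 3 of the 5 genes in each set were at least 2-fold higher in basal-like cells (8.95% and 10.4% of rows), and the log2 ratio of *Itga6* was 0.82 in set 2 and 1.03 in set 3, and that of *Itgb6* 1.52 and 0.42.

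*Dst*, which encodes the plakin dystonin, was at 463 CPM (439 to 489) in basal-like cells of set 2 and at 897 CPM (872 to 923) in those of set 3. In luminal-like cells the rates were 151 CPM (129 to 176) and 212 CPM (198 to 225). The corresponding folds were 3.06 (2.60 to 3.62) and 4.24 (3.96 to 4.55). The row sums all transcripts of the locus, so the epithelial form cannot be told apart from the others.

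*Itgb6*, the partner of αv in a receptor for latent TGF-β and fibronectin, stood at 113 CPM (101 to 126) in basal-like cells of set 2 and at 47.3 CPM (41.7 to 53.5) in set 3. Luminal-like cells had 23.6 CPM (15.4 to 34.5) and 21.2 CPM (17.2 to 25.9). The fold was 4.78 (3.203 to 7.43) in set 2 and 2.23 (1.75 to 2.85) in set 3, where the lower end of the interval lies under 2-fold. Its αv partner *Itgav* was measured at 135 CPM (122 to 149.6) and 134 CPM (125 to 144.5) in basal-like cells and at 103 CPM (85.2 to 124) and 141 CPM (129.99 to 152) in luminal-like cells. The log2 ratio of *Itgav* was 0.39 (0.09 to 0.71) in set 2 and -0.07 (-0.22 to 0.09) in set 3.

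**Figure D1:**
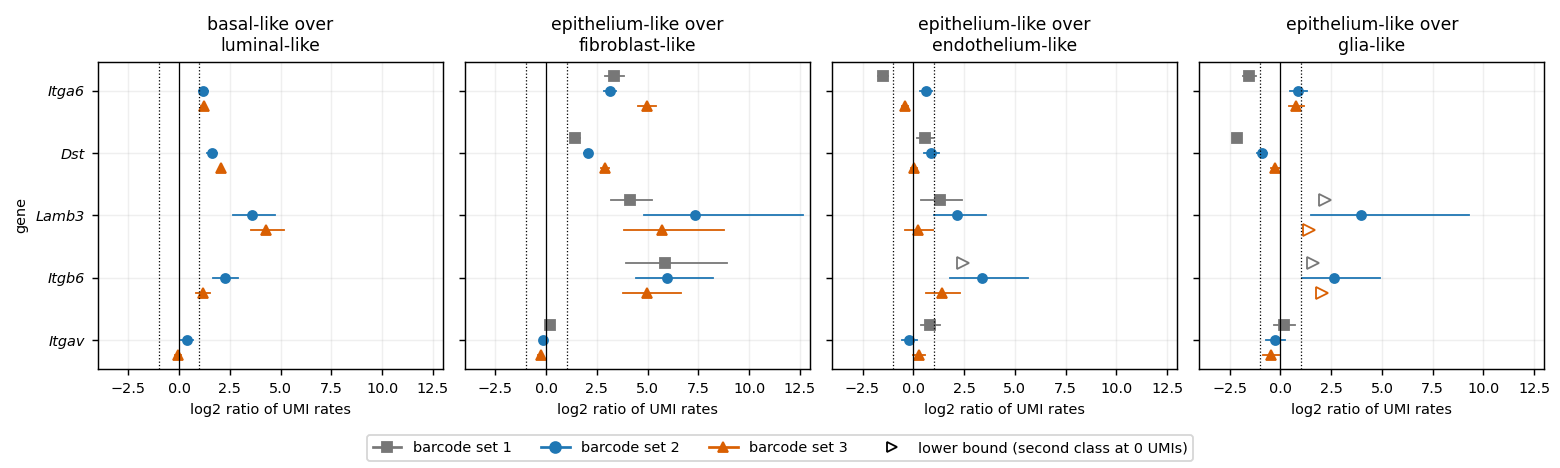
Log2 ratios of UMI rates of the 5 genes (rows) for 4 pairs of classes (panels), with exact 95% intervals of counting error as lines, barcode sets as colours and shapes, dotted lines at 2-fold either way, and open triangles for lower bounds where the second class had 0 UMIs. *Itga6*, *Dst*, *Lamb3* and *Itgb6* lie above 1 in the basal-like over luminal-like panel in both sets, while *Itgav* lies at 0.39 and -0.07.

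The DNA before the transcription starts of the genes that were higher in basal-like cells is shown because these genes differed in the same direction. From RefSeq (GRCm38.p6), 7 start sites of 4 of the 5 genes were used, and the start of *Itga6* was not analysed here. For *Lamb3* and *Itgb6* 1 upstream window of 250 bases is given here, and for *Dst* both, whose starts lie far apart in the locus. The windows read 5′ to 3′ in the direction of transcription, end at the base before the start, and have motif matches in capitals. The *Lamb3* window is chr1:193301744-193301993 on the plus strand, the *Itgb6* window chr2:60722604-60722853 on the minus strand, and the *Dst* windows chr1:34011345-34011594 and chr1:34160010-34160259 on the plus strand.
Lamb3: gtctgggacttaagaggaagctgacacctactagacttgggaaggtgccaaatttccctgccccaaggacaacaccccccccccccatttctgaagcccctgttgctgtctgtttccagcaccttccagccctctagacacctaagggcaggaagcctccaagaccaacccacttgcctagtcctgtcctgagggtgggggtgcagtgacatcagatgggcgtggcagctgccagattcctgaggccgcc
Itgb6: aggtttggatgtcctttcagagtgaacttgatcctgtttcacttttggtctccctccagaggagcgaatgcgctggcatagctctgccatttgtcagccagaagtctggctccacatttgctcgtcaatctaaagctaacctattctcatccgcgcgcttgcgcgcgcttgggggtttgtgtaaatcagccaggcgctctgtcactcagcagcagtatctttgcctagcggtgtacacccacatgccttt
Dst, first start: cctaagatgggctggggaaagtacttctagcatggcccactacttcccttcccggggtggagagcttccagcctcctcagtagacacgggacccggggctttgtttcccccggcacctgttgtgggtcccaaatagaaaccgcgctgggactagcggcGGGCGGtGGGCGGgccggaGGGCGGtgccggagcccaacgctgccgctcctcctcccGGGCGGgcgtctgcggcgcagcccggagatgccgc
Dst, second start: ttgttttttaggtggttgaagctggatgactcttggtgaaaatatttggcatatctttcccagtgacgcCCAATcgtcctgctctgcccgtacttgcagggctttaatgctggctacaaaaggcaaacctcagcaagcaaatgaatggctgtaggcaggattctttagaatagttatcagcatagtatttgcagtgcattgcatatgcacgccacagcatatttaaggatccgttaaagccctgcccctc

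The 2 *Dst* starts differ in base composition, at 68.8% G and C for the first and 45.2% for the second, both of which lie inside the annotated locus. The bases that follow these 2 starts were not found in the protein-coding transcripts of an older GENCODE annotation, made on another build, whereas those that follow the other 5 starts were. Motifs were searched on both strands. The first *Dst* window holds the GC box GGGCGG 4 times between 92 and 30 bases before the start, a motif found in 32.7% of 32851 windows of the same length, and the second holds CCAAT once, found in 33.8%. None of the 7 windows contains the AP-1 letters TGANTCA (6.75% of all windows), TATAAA (12.4%), CCGGAA (12.03%), the grainyhead palindrome AACCGGTT (0.116%) or the p53 family half-site (7.13%). The motif matches do not overlap one another, and the reads do not say which start was used.

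The basal-like clusters differed little among themselves in these genes. In set 3, where the 3 clusters held 786, 278 and 474 cells, *Itga6* stood at 451, 510 and 422 CPM, *Dst* at 874, 969 and 756 CPM, *Lamb3* at 57.8, 60.9 and 68.1 CPM, *Itgb6* at 42.0, 54.2 and 43.6 CPM and *Itgav* at 122, 152 and 120 CPM. No ratio between 2 of these clusters reached 2-fold in either set among the pairs formed with the second cluster, the deepest at a median of 6726.5 UMIs per cell in set 3. The widest was *Itga6* in set 2, 1.55-fold lower (1.01 to 2.52) in the third than in the second cluster on 21 against 881 UMIs.

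Depth per cell differed between the classes, with medians of 2730.0 and 2599.5 UMIs in basal-like and 7790.5 and 10034 UMIs in luminal-like cells of sets 2 and 3. Shares of cells with a UMI were therefore also taken after each cell was thinned to 900 UMIs, shallower cells left out. *Itga6* was then found in 32.0% and 32.4% of basal-like against 14.8% and 14.4% of luminal-like cells of sets 2 and 3, where before thinning it had been found in 67.8% of basal-like cells of set 2. For *Dst* the thinned shares were 33.9% and 44.9% against 10.9% and 15.8%. *Lamb3* was found in 8.07% and 5.09% of thinned basal-like cells and in 0 of 128 and 0 of 355 thinned luminal-like cells, with exact upper limits of 2.84% and 1.03%. These limits are for cells with a counted UMI at this depth and not for cells that express the gene. Fibroblast-like cells, taken as a background for the shares, with at least 900 UMIs had thinned shares of 3.07% and 0.931% for *Itga6* and of 0.0683% and 0% for *Lamb3* in sets 2 and 3.

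**Figure D2:**
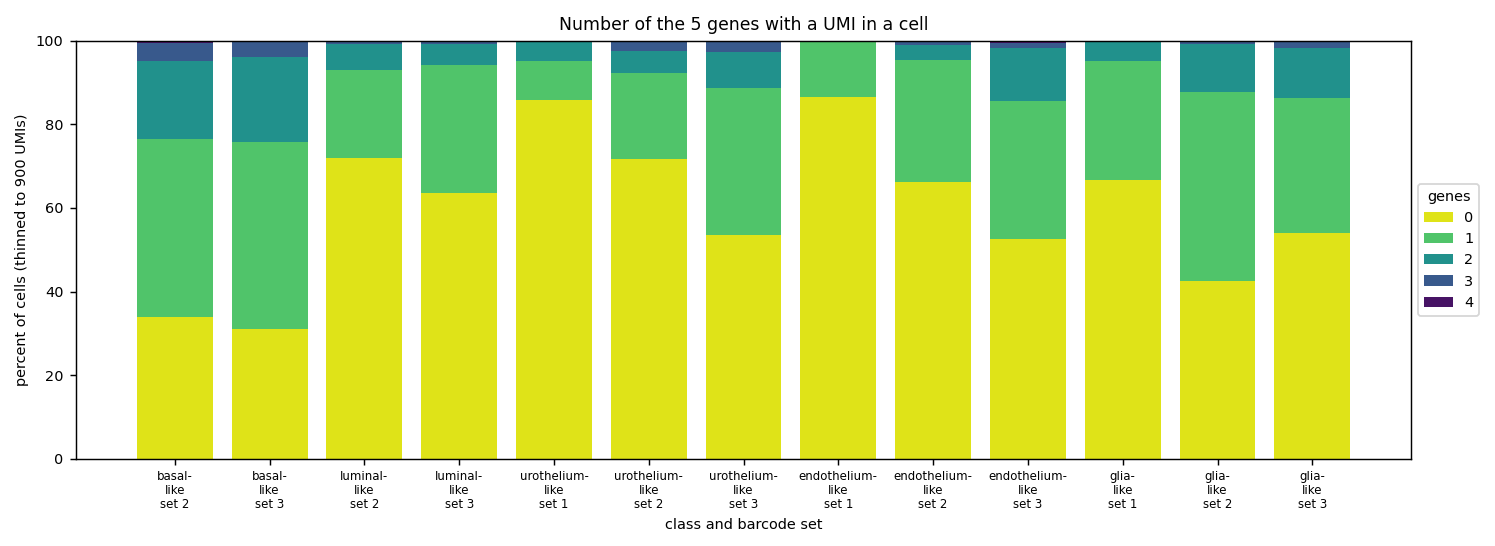
Percent of cells (vertical axis) with a UMI of 0, 1, 2, 3 or 4 of the 5 genes, in each class and barcode set, after every cell was thinned to 900 UMIs. No UMI of any of the 5 was found in 33.9% and 31.0% of basal-like cells of sets 2 and 3 and in 71.9% and 63.7% of luminal-like cells.

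Within thinned basal-like cells, the share with a UMI of one gene was compared between cells with and without a UMI of another. A *Dst* UMI was found in 33.5% (27.6 to 39.8) of thinned basal-like cells of set 2 with an *Itga6* UMI and in 34.0% (29.95 to 38.3) of those without one. In set 3 the shares were 46.9% (42.4 to 51.5) and 43.9% (40.9 to 47.0). Other pairs lay further apart, in either direction. In set 3 *Dst* was found in 55.8% (44.1 to 67.2) of cells with *Lamb3* and 44.3% (41.7 to 46.9) of those without. *Itga6* was found in 28.3% (21.6 to 35.8) with *Itgav* and 32.9% (30.4 to 35.4) without. The intervals of the shares with and without overlapped for all 20 ordered pairs of the 5 genes in each set. With 1 fixed number of 900 UMIs per cell, most RNA molecules of these genes go uncounted, and a weak link would not be detectable.

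Other epithelial clusters were left unnamed and lay between or outside the basal-like and luminal-like levels. Epithelial cluster 1 (35, 162 and 430 cells), which carried 5 luminal markers and was led by the kallikrein gene *Klk13*, held *Itga6* at 312 and 272 CPM and *Dst* at 185 and 247 CPM in sets 2 and 3. Its *Lamb3* was 27.7 CPM (19.8 to 37.7) in set 2 and 4.32 CPM (2.36 to 7.24) in set 3. Epithelial cluster 8 (24 and 59 cells in sets 2 and 3), led by *Cd52*, also carried 5 luminal markers. Its *Dst*, at 39.4 CPM (15.8 to 81.2) and 72.2 CPM (55.8 to 91.8), lay under the luminal-like rate in both sets. Yet its *Itgb6* was 50.7 CPM (23.2 to 96.2) and 105 CPM (85.0 to 128), in set 3 above the 47.3 CPM of basal-like cells.

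The urothelium lines the bladder and urethra in life. Cells called urothelium-like from their markers, whose site is not recorded, had less *Itga6*, *Lamb3* and *Dst* than basal-like cells in both sets. *Lamb3* was 17.1-fold (4.70 to 142) and 4.36-fold (2.46 to 8.53) higher in basal-like cells, on 2 and 12 UMIs in urothelium-like cells, and *Dst* was 3.37-fold and 3.53-fold higher. *Itga6* was 1.79-fold (1.44 to 2.25) and 1.49-fold (1.31 to 1.69) higher. *Itgb6* was 3.58-fold (1.97 to 7.24) higher in basal-like cells of set 2 but did not differ beyond counting error in set 3, at 0.952-fold (0.687 to 1.35). *Itgav* ran the other way in set 3, at 283 CPM (248.8 to 321) in urothelium-like cells, 2.11-fold (1.82 to 2.44) above basal-like cells. In set 2 the interval of this ratio spanned 0, at a log2 value of -0.24 (-0.65 to 0.19).

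Set 1 epithelium was different in make-up. Of its 159 epithelium-like cells, 98 fell in epithelial cluster 7, which carried basal, luminal and urothelial markers together and was led by *Sptssb* and *Ivl*. The cluster also carried 3 of 9 fibroblast, 3 of 6 pericyte and 2 of 6 smooth muscle markers, and the part of that RNA in its rates was not tested. In these 98 cells *Itga6* was at 77.1 CPM (69.2 to 85.8), *Dst* at 103 CPM (94.0 to 113), *Lamb3* at 36.6 CPM (31.2 to 42.8), *Itgb6* at 14.1 CPM (10.8 to 18.1) and *Itgav* at 68.3 CPM (60.8 to 76.5). The 57 cells of the same cluster in set 3 held 411, 1047, 58.3, 111 and 192 CPM of the 5 genes in that order, but the sets also differ in depth and library. Within set 1, *Lamb3* was higher in cluster 7 than in cluster 1 (7.82 CPM, 3.90 to 13.99) and in urothelium-like cells (1.31 CPM, 0.158 to 4.72).

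**Figure D3:**
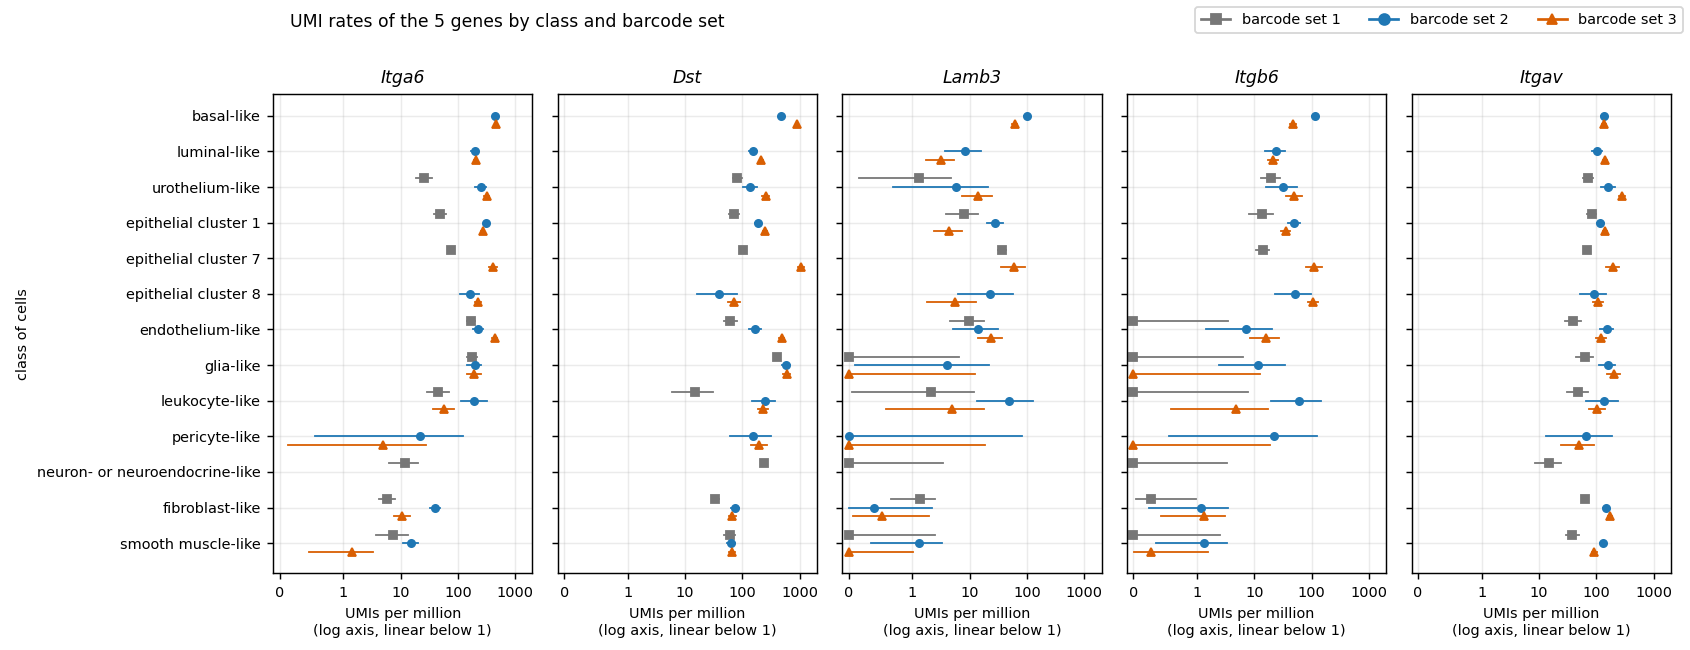
Rates in CPM of the 5 genes (panels) in each class with at least 20 cells (rows), on a log axis that is linear below 1, with exact 95% Poisson intervals as lines and barcode sets as colours and shapes. *Lamb3* and *Itgb6* are at 1.37 CPM or less in fibroblast-like and smooth muscle-like cells, *Itga6* is at 170.0 CPM or more in endothelium-like and glia-like cells, and *Dst* is at 404 CPM or more in glia-like cells.

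Against fibroblast-like cells the same 4 genes were higher in the epithelium. *Itga6*, *Itgb6*, *Lamb3* and *Dst* exceeded their fibroblast-like rates at least 2-fold in epithelium-like cells of sets 1, 2 and 3, beside 16.5%, 17.5% and 23.1% of the rows tested. None of the 5 genes was at least 2-fold lower, beside 25.1%, 20.5% and 23% of the rows. In set 1 the count was 1 with cells thinned to 900 UMIs and 2 at 1200 UMIs (12.7% and 12.5% of rows), while it was 4 in sets 2 and 3 at both depths. Epithelium-like cells include epithelial cluster 5, 259 of 1439 cells in set 2, which carried 8 of 9 fibroblast and 6 of 6 smooth muscle markers, and without clusters 5 and 9, a choice made after seeing the data, the count was 4 in each set (16.5%, 17.8% and 23.3% of rows). With fibroblast-like cells that held an epithelium marker left out, a choice of the same kind, it was 3 in set 1 (15.4% of rows). *Itga6* was 10.2-fold (7.48 to 14.3), 8.84-fold (7.27 to 10.9) and 30.8-fold (22.7 to 43.0) higher. Fibroblast-like cells held only 1 to 10 UMIs of *Lamb3* and 2 to 5 of *Itgb6* in a set. For *Lamb3* in set 2 the ratio of 159.6-fold (28.5 to 6315) rests on 515 against 1 UMI and was the highest of the 7039 rows tested. *Dst* was 2.70-fold, 4.16-fold and 7.39-fold higher in epithelium-like cells, the least of the 4 genes in each set. *Itgav* was within 2-fold of its fibroblast-like rate in each set. Its log2 ratio of epithelium-like over fibroblast-like cells was 0.18 (-0.00 to 0.36) in set 1, -0.15 (-0.32 to 0.02) in set 2 and -0.26 (-0.39 to -0.14) in set 3. On the mean of the natural log values per cell, *Itgav* was instead higher in epithelium-like than fibroblast-like cells of sets 2 and 3, by 0.177 and 0.107.

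Smooth muscle-like cells held *Itga6* at 15.0 CPM (10.96 to 19.96) and 1.40 CPM (0.456 to 3.27) in sets 2 and 3, the latter on 5 UMIs in 1950 cells, and did not differ beyond counting error from pericyte-like cells, which had 1 UMI in each set. Their *Dst*, at 59.8, 63.1 and 65.9 CPM, overlapped with that of fibroblast-like cells in sets 2 and 3 (74.0 and 66.9 CPM).

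*Itga6* was also high in endothelium-like cells. The rate was 170.0 CPM (146 to 197) in set 1, 229 CPM (186 to 279) in set 2 and 440.0 CPM (396 to 488) in set 3. In sets 1 and 2 these intervals overlapped with those of glia-like cells. The set 3 rate did not differ from basal-like cells of that set beyond counting error, with a log2 ratio of basal-like over endothelium-like of 0.10 (-0.06 to 0.26). In set 1 *Itga6* was 2.82-fold (2.36 to 3.36) higher in endothelium-like than in epithelium-like cells. Of the 5 genes 2, 2 and 1 were at least 2-fold higher in epithelium-like than in endothelium-like cells in sets 1, 2 and 3 (20.7%, 11.1% and 11.6% of rows tested), with *Itgb6* among them in every set, and 1, 0 and 0 were at least 2-fold lower (16.1%, 20% and 21.4%). In set 1 *Itgb6* was at least 5.48-fold higher, since no UMI of it was found in 38 endothelium-like cells, with the floor taken as 3 UMIs over the class. *Lamb3* was the other in sets 1 and 2. The count of higher genes was 1 in set 1 with cells thinned to 900 UMIs (22% of rows), 1 in set 2 without integration (12.5%) and 3 in set 3 with cells thinned to 1200 UMIs (11.6%).

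Endothelium-like cells also held epithelial RNA. The 14 epithelium markers with a row summed to 228, 1464 and 2273 CPM in them, against 8237 and 8880 CPM in basal-like cells of sets 2 and 3, and 6 of the 14, *Esrp1*, *Esrp2*, *Elf3*, *Ehf*, *Prss8* and *Spint1*, were at 0 in set 1. When cells with any UMI of these markers were left out, 39 of 96 endothelium-like cells remained in set 2 and 101 of 197 in set 3. *Itga6* was 267 CPM (183 to 377) and 417 CPM (347 to 496) in the cells that remained, within counting error of the rates in all of them. *Lamb3* went from 6 and 19 UMIs to 0 and 0, with exact upper limits of 30.8 and 12.2 CPM. *Dst* in set 3 went from 484 to 222 CPM (172 to 281) and *Itgav* from 120.0 to 49.6 CPM (27.8 to 81.8). In set 1 all but 9 of 38 endothelium-like cells held such a UMI, so the same values were not taken there. Against the cells that remained, 3 of the 5 genes in set 2 (8.22% of rows) and 4 in set 3 (11.8%) were at least 2-fold higher in epithelium-like cells.

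Glia-like cells, which carried Schwann cell markers such as *S100b*, *Erbb3* and *Cdh19*, also held much *Dst*. The rate was 404 CPM (354 to 459), 577 CPM (487 to 678) and 592 CPM (507 to 687) in sets 1, 2 and 3, the last with an interval that overlapped with that of endothelium-like cells. In set 2 it was 1.24-fold (1.04 to 1.48) above basal-like cells, and in set 3 basal-like cells were 1.52-fold (1.30 to 1.77) above it. *Itga6* was similar in the 3 sets, 175 CPM (143 to 213), 196 CPM (146 to 259) and 194 CPM (147 to 251). *Lamb3* had 0, 1 and 0 UMIs and *Itgb6* 0, 3 and 0 UMIs in 21, 186 and 237 glia-like cells. Of the 5 genes 2 were at least 2-fold higher in epithelium-like than in glia-like cells in each set (13.7%, 10.9% and 11% of rows tested), namely *Lamb3* and *Itgb6*. This count depended on the processing in every set. It was 0 in set 1 with cells thinned to 900 UMIs (11.6% of rows), 0 in set 2 without integration (12.2%), where the log2 ratio of *Lamb3* was -0.26 (-1.38 to 1.11) on 69 against 7 UMIs, and 0 in set 3 with at least 500 genes per cell (6.96%). In the other direction *Itga6* and *Dst* were 2.91-fold (2.32 to 3.61) and 4.42-fold (3.80 to 5.13) higher in glia-like cells of set 1, where 22.2% of rows were at least 2-fold lower in epithelium-like cells, while none of the 5 was in sets 2 and 3 (22.5% and 25.3% of rows).

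Among glia-like cells with no UMI of an epithelium marker, 133 of 186 in set 2 and 181 of 237 in set 3, *Dst* was 581 CPM (468 to 712) and 596 CPM (487 to 721). Medians in the cells that remained were 976 and 785 UMIs, against 1054 and 854 in all glia-like cells. At such depth a marker UMI can be missed, and the part of epithelial RNA in the glial *Dst* was not tested. The cells that remained held *Itga6* at 177 CPM (117 to 255) and 136 CPM (87.2 to 203) and no UMI of *Lamb3* or *Itgb6*. The floor of 3 UMIs stands at 18.9 and 17.0 CPM there.

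**Figure D4:**
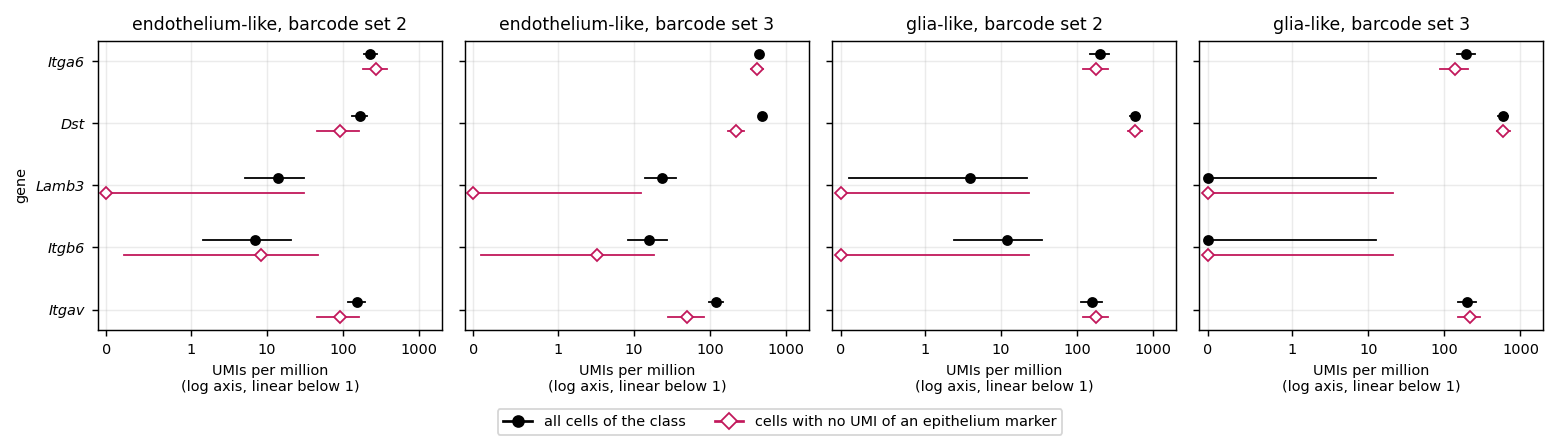
Rates in CPM of the 5 genes (rows; log axis, linear below 1) in endothelium-like and glia-like cells of sets 2 and 3 (panels), for all cells of the class (black) and for cells with no UMI of an epithelium marker (open diamonds), with exact 95% Poisson intervals. *Itga6* stays between 136 and 417 CPM in the cells without epithelium markers, and *Lamb3* is at 0 in all 4 panels.

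In the 25 leukocyte-like cells of set 2, epithelium markers summed to 3647 CPM and *Itga6*, *Lamb3* and *Itgb6* stood at 195, 48.8 and 61.0 CPM on 16, 4 and 5 UMIs. In set 3 the 177 leukocyte-like cells held *Itga6* at 58.1 CPM, and at 9.36 CPM (1.13 to 33.8), on 2 UMIs, in the 114 cells without an epithelium marker. The part of epithelial RNA in the values of set 2 was not tested.

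Of the 10 genes on the list of the hemidesmosome and its anchoring filaments 5 had a row, among them *Cd151*, while *Itgb4*, *Plec*, *Col17a1*, *Lama3* and *Col7a1* were not analysed here. *Cd151*, a tetraspanin that binds laminin-receptor integrins, was at 136 and 75.7 CPM in basal-like and 48.9 and 32.7 CPM in luminal-like cells of sets 2 and 3, log2 ratios of 1.47 (1.06 to 1.91) and 1.21 (0.93 to 1.49).

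Of the list of other laminin receptors and basement membrane partners, 4 of 7 genes tested in set 2 and 5 of 8 in set 3 were at least 2-fold higher in basal-like than in luminal-like cells, beside 16.3% and 14% of all rows. *Bcam*, a laminin receptor of the immunoglobulin family, had log2 ratios of basal-like over luminal-like cells of 2.16 (1.58 to 2.80) and 3.23 (2.74 to 3.77) in sets 2 and 3. *Agrn*, a basement membrane proteoglycan, stood at 2.77 (2.04 to 3.59) and 2.89 (2.42 to 3.402). Of the 8 integrin activators and adaptors tested, 6 were at least 2-fold higher in each set and 2 were not. The former include the kindlin gene *Fermt1*, at 1.49 (1.16 to 1.84) and 1.38 (1.15 to 1.62), and *Ilk*, at 1.69 (1.29 to 2.12) and 1.31 (1.04 to 1.59). *Macf1*, the other plakin with a row, differed less, at 0.53 (0.15 to 0.93) and 0.38 (0.14 to 0.63).

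Over all adhesion lists without the 5 genes, 16 of 27 genes tested were at least 2-fold higher in basal-like cells in set 2 and none lower, and 19 of 28 were higher and 2 lower in set 3, beside the 16.3% and 14% of all rows given above. Their median log2 ratio was 1.28 and 1.31. The lists include genes that fibroblasts also express, such as *Fn1*, and the part of stromal RNA in this count was not tested. The 2 that were lower in set 3 were *Tgfb2*, at 23.6 against 66.6 CPM, and *Frem2*, at 4 against 8 UMIs. Among the ligands of the dimer of αv and β6, *Tgfb1* was higher in basal-like cells, 67.2 against 28.1 CPM in set 2 and 43.2 against 18.8 CPM in set 3.

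**Figure D5:**
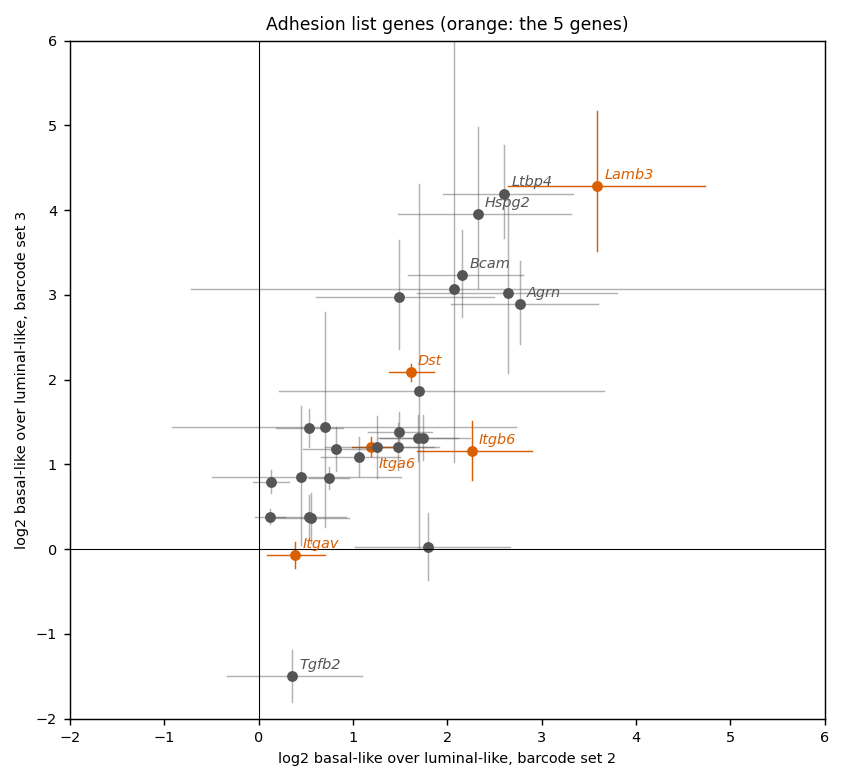
Log2 ratio of basal-like over luminal-like UMI rates in set 2 (horizontal) and set 3 (vertical) for the 30 adhesion list genes with at least 10 UMIs and no class at 0 UMIs in both sets, with exact 95% intervals as lines drawn no further than the frame, and the 5 genes in orange. Of the 30, 18 lie at 1 or above in both sets, 4 of them orange, and *Lamb3* has the highest log2 ratios, 3.59 and 4.29.

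The likeness of other genes to each of the 5 was measured as the Pearson correlation of log2(CPM + 5) over 32 points of class and set with at least 20 cells, among 6408 genes with at least 200 UMIs. These points share libraries and depth, and the values are a description. *Itga6* was most like *Plekha1* (0.85), *Kcnn4* (0.84) and *Fermt1* (0.81), and *Itgb6* reached 0.86 with *Tgfa* and 0.85 with *Slc25a24*. *Lamb3* was most like *Tbc1d2* (0.84), *Serpinb5* (0.80), which is also on the basal marker list, and *Shh* (0.80). *Itgav* reached 0.75 with *Sgms2*, 0.74 with *Reep3* and 0.73 with *Tmbim1*, and *Dst* 0.68 with *Lgals7* and *Fah*. Among the 5 genes themselves the closest pair was *Itgb6* and *Lamb3* (0.74) and the most distant was *Itgav* and *Lamb3* (0.35). By Spearman correlation they were *Itga6* and *Lamb3* (0.76) and *Dst* and *Lamb3* (0.28).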

How the data were processed

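Single-cell RNA-seq libraries of male urogenital sinus (E18.5) and prostate (P14, P35), 1 each, were made into 1 table. Per the labels, reads were processed with Cell Ranger 3.1.0 against mm10. The deposited values were natural log values that the authors made as ln(1 + 10000 × UMIs / total UMIs of the cell). Whole UMIs were recovered from them: 100% of 11120281 values above 0 were whole within 0.05, so recovered counts were used. Of 9784 rows 1 was incomplete and 2 shared a name.

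Cells with under 200 detected genes were left out. Clustering used Seurat 5.3.0 in R 4.3.3 (2000 features, 20 dimensions, resolution 0.5, sets integrated). A marker was carried where 10% or more of the cells of a cluster held a UMI of it and its rate met a minimum. The minimum was 2 times the rate of the median cluster, itself taken as at least 1 CPM. A name needed 3 carried markers of 1 list. Epithelial clusters with 3 carried fibroblast, smooth muscle or pericyte markers stayed unnamed. So did clusters where another cell type had more markers among the 10 leading genes, as with *Ndufa4l2* (pericyte) in epithelial cluster 1 and *Cd52* (leukocyte) in cluster 8. This naming rule was set after clustering. Scrublet in scanpy 1.11.5 placed 3 cells of set 1 and none of the others over its threshold, so it marked too few to work, and the study's methods state that multiplets had been filtered. Rates, exact intervals and ratios were computed in Python 3.11.15 with numpy 2.4.6, scipy 1.17.1 and pandas 2.3.3, and plots with matplotlib 3.10.9. The ratio step was tested on simulated data. A class needed 20 cells in a set, a ratio tested 10 UMIs over both classes, and a difference was called at 2-fold. A class at 0 UMIs was set to a floor of 3 UMIs.

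The genes named are the 5 genes, their adhesion lists and, for each, the 3 genes of highest likeness, except for some that are not reported here. Genes and lists were chosen with earlier results of these data known. The number of cells per set was not that stated by the study for sets 2 and 3. Promoter windows came from RefSeq.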

Additional observations from a re-analysis of the deposited data

How the results depend on the processing

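Counts of the 5 genes called were taken 214 times under other settings. Of these, 194 equalled the reported count or stayed within 1.5 times of it, and 20 did not. The 194 include counts of 0 that stayed at 0. Of 576 values set beside the main log2 ratios, 431 were counted as the same, 143 as moved and 2 as reversed. A ratio was the same where it lay within the interval of the main ratio. It could count as reversed only where the main ratio was at least 2-fold either way. Sign changes of smaller ratios are therefore not among the 2. The 576 include 55 differences of mean deposited log values, compared by sign alone. The 5 sign changes of these differences given below lie among the 431. The cause was not tested for any of the changes below, and the percentages are shares of all rows tested under the same setting. Without integration of the sets, the genes higher in basal-like than in luminal-like cells numbered 2 in set 2 and 2 in set 3 (16.4% and 9.93%), those higher in epithelium-like than in endothelium-like cells 1 in set 2 (12.5%), and those higher or lower than in glia-like cells 0 and 1 in set 2 (12.2% and 21.8%), where the log2 ratio of *Lamb3* was -0.26. With at least 500 genes per cell, 0 genes were higher than in glia-like cells in set 3 (6.96%). With the top 5% of doublet scores left out, 1 gene was lower than in glia-like cells in set 2 (23%). Thinned to 900 UMIs, 1 gene was higher than in fibroblast-like and 1 than in endothelium-like cells in set 1 (12.7% and 22%), and 0 and 1 than in glia-like cells in sets 1 and 3 (11.6% and 9.86%). Thinned to 1200 UMIs, 2 were higher than in fibroblast-like cells in set 1 (12.5%), 3 than in endothelium-like cells in set 3 (11.6%), and 1 than in glia-like cells in sets 1 and 3 (12.4% and 8.04%), with 1 lower in set 1 (14.8%), where the log2 ratio of *Itga6* was 0.56 on 11 against 1 UMIs. At 1.5-fold with no minimum of UMIs, 4 were higher than in endothelium-like and 1 lower than in glia-like cells in set 2 (14.9% and 28.2%). Of alternatives chosen after seeing the data, leaving out cells with stromal markers gave 2 genes higher in basal-like cells of set 2 (21.5%), and leaving out endothelium-like cells with epithelial markers gave 4 higher in set 3 (11.8%). With Spearman in place of Pearson correlation, 1, 0, 1 and 1 of the 3 genes most like *Itgb6*, *Itgav*, *Lamb3* and *Dst* were shared. On the mean of the deposited log values, 5 of 55 differences turned sign, *Itgav* against fibroblast-like and glia-like cells in sets 2 and 3 and *Dst* against glia-like cells in set 3. Comparisons with fewer than 20 cells in a class were not run, among them epithelium and fibroblasts of set 1 without integration. No paired analysis was possible because each tissue had 1 library. Counting error from few UMIs limits *Lamb3* and *Itgb6* outside the epithelium.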
